A study of Mus musculus with 51 samples.

Results

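Open chromatin at gene starts was followed in mouse neutrophils on their way from the bone marrow through the blood into inflamed tissue. The regions are the merged ATAC-seq peaks of the study that covered, or came within 1000 bp of, an annotated gene start. They numbered 13401 of the 47164 merged peaks and lay at the starts of 14102 of the 50600 annotated genes. A start is the 5′ end of the gene model in the table that came with the tissue RNA counts, and none of the measured changes was used to choose the peaks. ATAC-seq marks DNA that an added transposase can reach. Neutrophils were taken 4 h after 100 µg of zymosan, a yeast cell wall particle, had been injected into an air pouch raised for 6 days under the skin of the back. Ly6G+ cells came from the bone marrow, the blood, the membrane lining the pouch and the exudate inside it, with 2 ATAC-seq libraries of 75000 cells per tissue. RNA of the same tissues came from CX3CR1GFP Ly6GCre-tdTomato mice, reporter animals in all groups. There were 2 RNA libraries from membrane, 3 from bone marrow and 5 each from blood and exudate. ER-Hoxb8 neutrophils, grown from progenitors held immature by an oestrogen-controlled Hoxb8 and then differentiated for 5 days, gave RNA after 2 h with zymosan at 50 µg/ml or with the solvent DMSO. These came as 2 sets, each with its own wild type: CEBPB-/- and JUNB-/- cells belong to set 1, RELB-/- and IRF5-/- to set 2, and every group has 2 libraries. Whether a knockout line was 1 clone is not given in the sources used here, and neither is whether replicates were separate cultures or animals. The p-values below therefore measure the spread between these libraries, which may be technical.

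A gene start is where RNA polymerase begins transcription, and the promoter around it is usually kept free of nucleosomes in cells that use the gene. Many promoters, above all those of housekeeping genes, lie in CpG islands and stay open in most cell types. Promoters of inducible genes often lack such islands and open on a signal. In neutrophils, microbial particles signal through NF-kB to cytokine and chemokine genes, and type I and type II interferons signal through STAT and IRF factors to antiviral and immunity-related GTPase genes. Granule protein genes are transcribed mainly while the cells mature in the marrow.

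The sequences below are the 250 bases before the RefSeq start (GRCm38.p6, which has the coordinates of the mm10 build of the peaks) of 9 genes whose start peaks changed. They are shown because 7 carry the short AP-1, NF-kB or IRF letter patterns that were more frequent among opened promoters, while Birc3, which opened, and Retnlg, which closed, do not. Of the 9 windows 8 lie inside a listed peak and that of Birc3 lies partly inside one, and all run 5′ to 3′ on the strand of the gene. Capitals mark matches, on either strand, to the AP-1 pattern TGANTCA, the NF-kB pattern GGANTTTCC, the IRF pattern GAAANNGAA and the C/EBP pattern TTGCNNAA.
Ifit1, chr19:34640639-34640888, plus strand: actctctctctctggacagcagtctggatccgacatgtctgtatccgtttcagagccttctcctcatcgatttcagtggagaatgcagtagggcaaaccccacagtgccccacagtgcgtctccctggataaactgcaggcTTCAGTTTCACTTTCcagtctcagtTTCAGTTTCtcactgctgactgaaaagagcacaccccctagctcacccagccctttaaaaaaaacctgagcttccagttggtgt
Gbp2, chr3:142620413-142620662, plus strand: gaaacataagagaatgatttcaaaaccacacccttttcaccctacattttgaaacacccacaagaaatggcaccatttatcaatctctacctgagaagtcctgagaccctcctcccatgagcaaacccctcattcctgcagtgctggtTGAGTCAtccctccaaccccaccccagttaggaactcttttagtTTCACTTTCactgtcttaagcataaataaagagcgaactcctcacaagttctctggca
Irgm1, chr11:48871421-48871670, minus strand: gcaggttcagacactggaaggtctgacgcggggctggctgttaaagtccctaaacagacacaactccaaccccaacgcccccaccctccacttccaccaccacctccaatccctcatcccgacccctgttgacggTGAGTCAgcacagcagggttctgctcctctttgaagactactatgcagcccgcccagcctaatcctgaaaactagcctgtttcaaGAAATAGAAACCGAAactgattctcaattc
Nfkbia, chr12:55492648-55492897, minus strand: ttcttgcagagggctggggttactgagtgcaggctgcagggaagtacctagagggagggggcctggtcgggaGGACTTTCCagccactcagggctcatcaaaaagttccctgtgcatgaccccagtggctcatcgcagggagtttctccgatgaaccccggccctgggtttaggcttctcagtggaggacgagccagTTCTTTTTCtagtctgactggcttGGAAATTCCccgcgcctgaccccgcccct
Birc3, chr9:7873171-7873420, minus strand: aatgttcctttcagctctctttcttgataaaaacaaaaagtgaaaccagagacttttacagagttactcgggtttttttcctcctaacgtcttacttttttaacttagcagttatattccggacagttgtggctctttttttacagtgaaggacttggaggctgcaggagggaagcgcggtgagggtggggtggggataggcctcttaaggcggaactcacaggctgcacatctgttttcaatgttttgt
Cxcl3, chr5:90785851-90786100, plus strand: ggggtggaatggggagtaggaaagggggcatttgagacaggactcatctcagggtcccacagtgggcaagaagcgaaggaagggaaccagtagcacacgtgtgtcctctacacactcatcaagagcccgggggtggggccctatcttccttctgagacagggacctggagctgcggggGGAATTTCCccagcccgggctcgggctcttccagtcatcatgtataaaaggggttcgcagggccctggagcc
Ccl3, chr11:83649379-83649628, minus strand: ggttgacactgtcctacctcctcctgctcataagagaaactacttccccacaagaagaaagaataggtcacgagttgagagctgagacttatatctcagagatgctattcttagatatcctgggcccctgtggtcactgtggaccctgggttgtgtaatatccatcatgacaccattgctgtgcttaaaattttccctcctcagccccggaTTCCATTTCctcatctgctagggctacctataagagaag
F3, chr3:121723287-121723536, plus strand: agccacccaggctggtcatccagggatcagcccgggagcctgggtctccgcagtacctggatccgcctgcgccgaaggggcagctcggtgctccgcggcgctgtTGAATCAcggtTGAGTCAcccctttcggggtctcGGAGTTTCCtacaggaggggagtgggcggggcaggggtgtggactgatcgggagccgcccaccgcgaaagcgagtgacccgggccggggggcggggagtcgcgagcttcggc
Retnlg, chr16:48872358-48872607, plus strand: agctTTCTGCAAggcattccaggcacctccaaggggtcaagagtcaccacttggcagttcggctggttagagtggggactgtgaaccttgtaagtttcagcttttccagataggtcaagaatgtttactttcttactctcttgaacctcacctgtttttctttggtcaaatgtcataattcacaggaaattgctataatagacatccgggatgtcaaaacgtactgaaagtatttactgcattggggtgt

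In Ifit1, an interferon-induced gene whose product binds viral RNA, 3 IRF matches stood 109 to 101, 103 to 95 and 84 to 76 bases before the start. Gbp2, which encodes a guanylate-binding protein, held an AP-1 match at 102 to 96 and an IRF match at 58 to 50. Irgm1, an immunity-related GTPase, held an AP-1 match at 115 to 109 and overlapping IRF matches at 30 to 22 and 24 to 16. Nfkbia, which encodes the inhibitor of NF-kB, held NF-kB matches at 178 to 170 and 29 to 21 with an IRF match at 53 to 45. The chemokine gene Cxcl3 held an NF-kB match at 72 to 64, and the chemokine gene Ccl3 an IRF match at 39 to 31. F3, which encodes tissue factor, the trigger of coagulation, held AP-1 matches at 146 to 140 and 135 to 129 and an NF-kB match at 112 to 104. Retnlg, a resistin-like gene of neutrophils whose start closed, held none of the first 3 patterns, only a C/EBP match at 246 to 239. Birc3, a ubiquitin ligase gene of the NF-kB pathway, held 0 matches to these patterns, which says only that these letters are not in this window. A match is a description of letters and does not show that a factor bound there.

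Peaks at gene starts were larger than the others but changed less often. Of the 13401 peaks, 71.2% covered a start, 10.4% lay upstream of it and 18.5% downstream, and 22.5% served 2 or more starts. Their median width was 558 bp against 531 bp farther from starts. Their median deposited score, whose scale is not stated, was 205 against 74.0, and they had been merged from a median of 8 against 3 peaks. In all, 1571 of them (11.7%) were in at least 1 of the authors' 10 lists of peaks more or less accessible in one tissue than in another, against 7881 (23.3%) of the 33763 peaks farther away. The lists give a peak's adjusted p but no value per library, and they rest on 2 libraries per tissue. A peak in a list of more accessible peaks is called opened here, and one in a list of less accessible peaks closed.

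Entry into the pouch went with opening far more than with closing at gene starts when blood was the reference. Between exudate and blood 450 gene-start peaks (3.36%) had opened and 123 (0.918%) had closed. The same lists held 6.01% and 2.3% of all merged peaks, and 7.06% and 2.85% of those farther from starts. Between membrane and blood 361 had opened (2.69%; 4.72% of all peaks) and 94 had closed (0.701%; 1.92% of all). Against bone marrow the directions were closer to each other. From bone marrow to exudate 616 had opened (4.60%; 9.93% of all) and 506 had closed (3.78%; 4.72% of all), and from bone marrow to membrane 529 had opened (3.95%; 8.6% of all) and 488 had closed (3.64%; 4.55% of all). Between blood and bone marrow 53 had opened (0.395%; 1.19% of all) and 110 had closed (0.821%; 0.812% of all). That last list was the only one of the 10 in which the share at gene starts was not below the share farther away (0.809%); in the other 9 the farther share was 1.35 to 3.79 times as large.

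**Figure D1:**
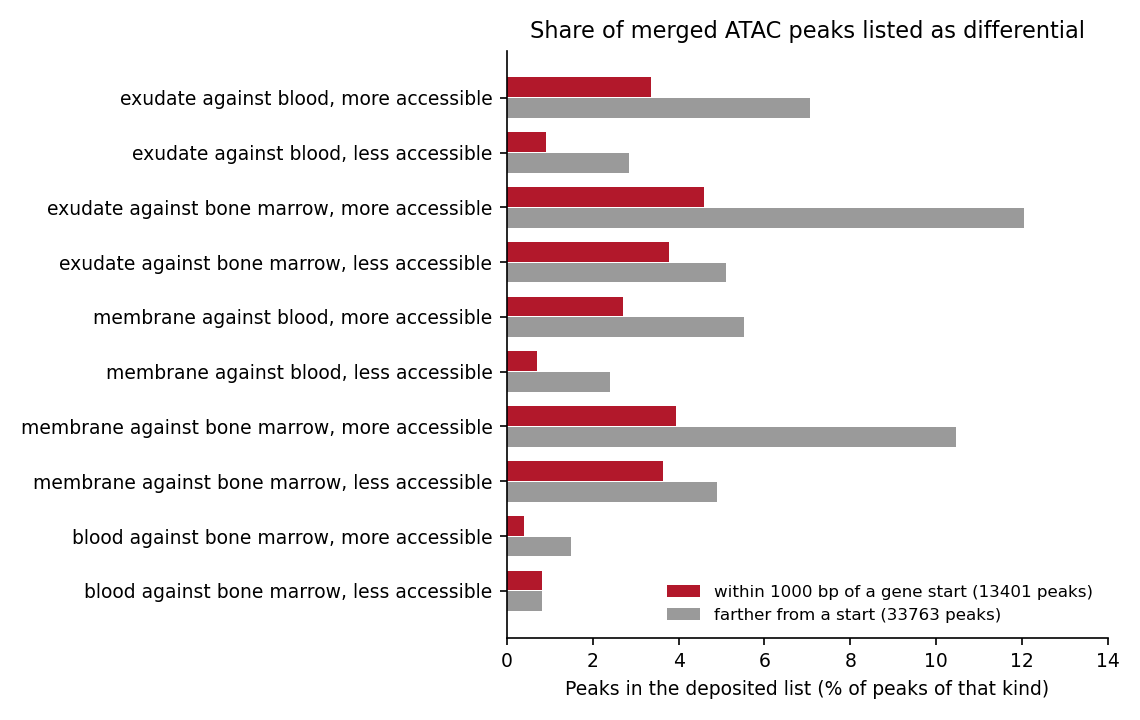
Share of merged ATAC peaks in each of the 10 lists of the authors, as percent of the 13401 peaks within 1000 bp of a gene start (red bars) and of the 33763 peaks farther away (grey bars). The grey bar is the longer one in 9 lists, and in the list of peaks less accessible in blood than in bone marrow both stand near 0.8%.

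The lower share at gene starts was present at every peak height. With the merged peaks split by deposited score into 4 equal groups, the shares opened between exudate and blood were 1.66%, 3.56%, 6.20% and 2.46% from the lowest to the highest group at gene starts. Farther away they were 2.17%, 5.95%, 11.8% and 10.8%. In the highest group, which held 6752 gene-start peaks, the gap was therefore widest. Where a gene-start peak had opened it was also less often on the start itself. Of the gene-start peaks in no list 72.9% covered a start, but only 51.3% of those opened and 38.2% of those closed between exudate and blood did. Peaks that closed from bone marrow to exudate (71.7%), from bone marrow to membrane (74.6%) and from bone marrow to blood (83.6%) were on the start about as often as unlisted ones or more often. The 450 opened peaks between exudate and blood belonged to 464 genes, and for 208 of these the opened peak lay beside the start. Of the 208, 108 (51.9%) had another merged peak on the start. A peak near a start need not act on that gene, and the authors' own annotation named the same gene for 62.7% of the 450.

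The pouch compartments resembled each other in their opened starts. Lists that share no library can be overlapped. Of the 450 peaks opened between exudate and blood, 310 (68.9%) were among the 529 opened between membrane and bone marrow, of which they made up 58.6%, and 0 were among those closed there. For closed peaks the overlap was 47 (38.2% of 123 and 9.63% of 488), against 42.7% and 24.8% of the lists farther from starts. In the other such pair, 285 opened peaks were common to exudate against bone marrow (46.3% of 616) and membrane against blood (78.9% of 361), and 44 closed peaks were (8.70% of 506 and 46.8% of 94), against 362 shared peaks farther from starts, out of 1721 and 811 (44.6%). Farther from starts the corresponding shares for opened peaks were 75.5% and 51.0% in the first pair and 38.8% and 84.6% in the second.

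Promoters that opened in the pouch were poorer in CpG than the promoters that did not change. RefSeq windows of 300 bases, 250 before and 50 after a start, could be matched to 57.4% of gene-start peaks and to 37.3% of those opened between exudate and blood, so the shares describe the matched windows and not all members. Among 8150 windows in unlisted peaks 84.0% had a ratio of observed to expected CpG of 0.6 or more, and the median GC content was 62.7%. Among 179 windows in peaks opened between exudate and blood 29.6% reached that ratio, and the median GC content was 53.0%. The 35 windows in closed peaks of that comparison stood between them at 45.7%. The other lists of opened peaks had 25.1% (exudate against bone marrow), 31.8% (membrane against blood), 25.6% (membrane against bone marrow) and, from 12 windows, 16.7% (blood against bone marrow). Peaks that closed relative to bone marrow were like the unlisted ones, at 75.3% for exudate, 76.2% for membrane and 80.2% for blood. Over all 27025 distinct promoter windows of the RefSeq table the share was 36.5%.

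Letter patterns of inflammatory factors were more frequent in the opened windows. On both strands, the IRF pattern was in 31.8% of the 179 windows opened between exudate and blood, in 6.20% of unlisted and in 8.57% of all windows of the same length. The AP-1 pattern was in 22.3%, 3.93% and 7.93%, and the NF-kB pattern in 9.50%, 0.957% and 1.23%. Patterns of constitutive promoters went the other way. The GC box GGGCGGG was in 26.8% of the opened, 53.8% of the unlisted and 25.8% of all windows, and the ETS pattern CCGGAAG in 7.82%, 22.4% and 9.12%. The TATA box TATAAA was in 19.6% of the opened, 5.44% of the unlisted and 14.2% of all. The other patterns follow in the same order of opened, unlisted and all windows. CRE (TGACGTCA) was in 1.68%, 4.01% and 1.88%, GAS (TTCNNNGAA) in 14.5%, 6.13% and 8.47%, and PU.1 (GAGGAAG) in 22.9%, 13.5% and 13.5%. C/EBP was in 13.4%, 7.08% and 10.8%, and RUNX (TGTGGTT) in 10.6%, 3.35% and 5.37%. CCAAT was in 32.4%, 39.6% and 37.9%, and NRF1 (GCGCATGC) in 0.559%, 6.59% and 2.80%. CRE in opened windows was thus near its share of all windows. Windows that closed from bone marrow to exudate held the IRF pattern in 4.06%, AP-1 in 3.44%, C/EBP in 13.1% and the GC box in 54.7% of 320.

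Most interferon-stimulated genes with a start peak opened in both pouch groups. Of the 39 listed genes 36 had a peak at the start, and in 32 of these it had opened between exudate and blood, the same number as between exudate and bone marrow. In membrane it had opened in 24 against blood and in 25 against bone marrow. In 0 of the 36 had it closed in any of these 4 comparisons. Of all 14102 genes with a start peak 463 had opened in exudate against blood and 625 against bone marrow. In membrane 380 and 539 had opened. The blood lists held few of the interferon genes, since only Rsad2 and Ifi204 had opened between blood and bone marrow, where 52 of all genes had. The highest value of all gene-start peaks in the exudate lists belonged to Ifi204, a DNA-sensing protein gene: in the authors' deposited table its -log10 adjusted p was 51.3 against blood and 87.5 against bone marrow. Gbp2 had 3 opened peaks, with 13, 43.6 and 6.09 against blood in the authors' deposited table, the highest on the start. Irgm1 had 37.3 on the start and 16.7 at a peak 357 bp upstream, and Ifit1 had 30.6, in the authors' deposited table. The Ifit1 peak (chr19:34640590-34641095) also covers the start of Ifit1bl2, so the opening cannot be given to either gene alone. Slfn5, a Schlafen gene induced by interferon and not in the list, had 44.8 at a peak 465 bp downstream of the start, in the authors' deposited table.

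NF-kB pathway genes opened more selectively. Of 22 with a start peak 9 had opened between exudate and blood: the subunit genes Nfkb1, Nfkb2 and Rela, the IkB family genes Nfkbia, Nfkbie, Nfkbiz and Bcl3, and Birc3 and Map3k8, a ubiquitin ligase and a kinase gene of the pathway. In membrane 7 had opened against either reference. Of all 14102 genes with a start peak 463 had opened and 132 had closed between exudate and blood, the base for this and the other lists in that comparison. In membrane 380 had opened against blood and 539 against bone marrow. Nfkbia had a -log10 adjusted p of 42.8 in the authors' deposited table for exudate against blood, and Birc3 one of 47.9. Birc3 also stood in a list of the opposite direction, since its peak (chr9:7872649-7873299, on the start) had closed between blood and bone marrow at 8.51 in the authors' deposited table. Its start was thus least open in blood.

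Most chemokine genes with a start peak, and some cytokine genes, opened. Of 7 chemokine genes with a start peak 6 had opened between exudate and blood: Cxcl2, Cxcl3, Cxcl10, Ccl3, Ccl4 and the decoy receptor gene Ccrl2. Of 15 cytokine genes Il1a, Il1b, Il23a, Tnf, Csf1 and Il18 had opened and Osm had closed. In the authors' deposited table the values against blood were 30.9 for Ccl3, 25.4 for Cxcl3, 19.8 for Il23a, 13.8 for Ccl4, 9.95 for Tnf, 7.66 for Il1a and 3.61 for Il1b. Il1b had higher values against bone marrow, with 12.4 for exudate and 24.8 for membrane in the authors' deposited table. These are adjusted p-values and give no size of the change. The Osm peak that closed lay 934 bp downstream of the start (15.5 in the authors' deposited table), and the Osm peak on the start was in no list. Mafk, which encodes a small Maf partner of AP-1-like factors, showed the same arrangement: a peak 259 bp downstream had closed (13.9 in the authors' deposited table), and the peak on its start, with a score of 1378, was in no list.

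Genes for receptors, adhesion and survival opened in part. Between exudate and blood the opened starts included Tlr2, Tlr4, Tlr9, Cd14, Clec4e and Mefv of 28 pattern recognition genes, Icam1, Fpr1, Fpr2, Pecam1 and Cd47 of 20 adhesion genes, and Bcl2a1a, Bcl2a1b, Bcl2a1d, Birc3 and Fas of 20 survival genes. The death receptor gene Fas had 39.4 and Icam1, an adhesion molecule gene, 13 in the authors' deposited table. The 3 Bcl2a1 genes are near-identical copies, so reads may have been split among them. Against bone marrow 12 of the 28 pattern recognition starts had opened in exudate, as had 625 of all 14102 genes with a start peak. Among the 12 was Clec7a, which encodes the zymosan receptor Dectin-1, and Clec7a had already opened between blood and bone marrow. Of 26 AP-1 and immediate early genes Egr3, Ier3 and Dusp2 had opened and Mafk had closed. Of 19 granulocyte transcription factor genes Irf5 and Irf1 had opened. Among all 14102 genes with a start peak 463 had opened and 132 had closed between exudate and blood. The starts of Cebpb, Junb, Relb, Runx1 and Klf6 carried peaks that were in no list. The Irf5 start had opened in all 4 pouch comparisons, at 9.46 against blood and 14.3 against bone marrow for exudate in the authors' deposited table.

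**Figure D2:**
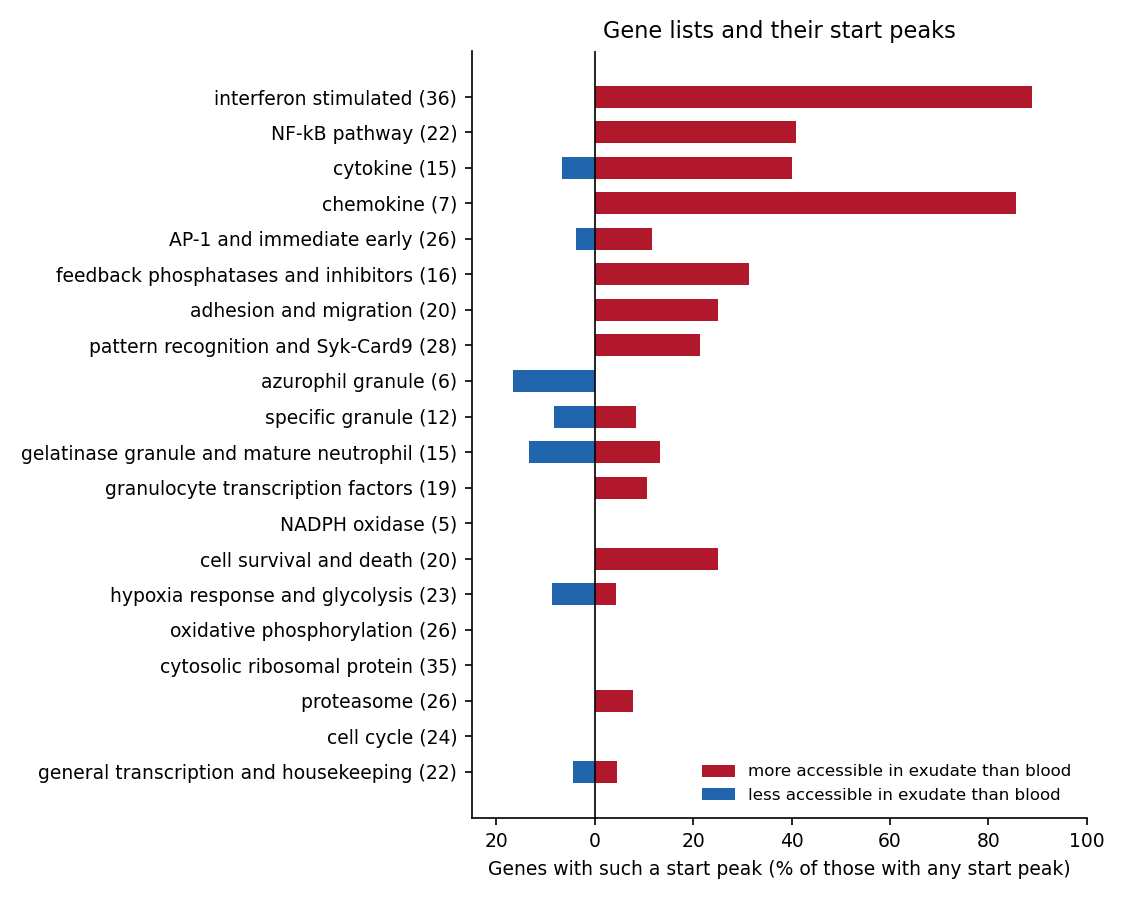
For 20 gene lists, the share of genes with a start peak (their number in brackets) whose start peak was more accessible (red, to the right) or less accessible (blue, to the left) in exudate than in blood. The interferon list, with 32 of 36, and the chemokine list, with 6 of 7, reach farthest to the right, and ribosomal protein, oxidative phosphorylation, NADPH oxidase and cell cycle genes have 0 opened starts.

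Specific granule genes were among the genes whose starts closed relative to bone marrow. Of all 14102 genes with a start peak these numbered 134 for blood, 580 for exudate and 575 for membrane. Of 12 specific granule genes with a start peak, Ltf, Camp, Ngp, Cd177, Itgb2l and Abca13 had closed between blood and bone marrow, 5 had closed from bone marrow to exudate and 4 from bone marrow to membrane. Ngp, which encodes a neutrophilic granule protein, was in the closed list of all 5 comparisons, from 1.57 between blood and bone marrow to 9.73 between exudate and bone marrow in the authors' deposited table. Lcn2, the gene of the iron-scavenging lipocalin, was the one member of that list to open, at 2.32 to 2.59 in the 4 pouch comparisons in the authors' deposited table. Of 15 genes of gelatinase granules and mature neutrophils, 0 had closed between blood and bone marrow, 4 from bone marrow to exudate and 1 from bone marrow to membrane, while 1, 4 and 5 had opened. Of all 14102 genes with a start peak 52, 625 and 539 had opened in these comparisons. Of 6 azurophil granule genes 0, 1 and 0 had closed. Retnlg closed with 3 peaks, of which the one on the start had 10.8 against blood and 23.7 against bone marrow for exudate in the authors' deposited table. Syne1, which encodes a nuclear envelope protein, had 26.7, and Anxa5, the annexin A5 gene, had 15.9 in the list of peaks closed from bone marrow to exudate in the authors' deposited table. Mmp9, which encodes gelatinase B, went the other way and had opened in blood (5.21), exudate (13.1) and membrane (7.13) relative to bone marrow in the authors' deposited table. Adgre5, which encodes the adhesion receptor CD97, had 12.1 and was among the few opened between blood and bone marrow in the authors' deposited table. The 35 ribosomal protein, 5 NADPH oxidase and 24 cell cycle genes with start peaks had 0 opened in any of the 5 comparisons, and 0 closed but for Ccnb1 from bone marrow to exudate. Of all 14102 genes with a start peak 52 to 625 had opened per comparison, so 0 of 5 NADPH oxidase genes is near that share.

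The tissue RNA libraries held 9.24 to 19.1 M counted reads each, with a common biological coefficient of variation of 1.86. Markers of neutrophils were above 0 in all 15 libraries. Summed levels of 10 monocyte and macrophage markers lay between 1.38 and 199 CPM (read counts scaled to library size) in exudate, 110 and 124 in membrane, 0.0482 and 153 in blood and at 0 to 0.114 in bone marrow. Of 9 markers of dendritic cells and MHC class II the sum lay between 0.153 and 407 CPM in exudate, 180 and 251 in membrane, 2.48 and 59.3 in blood and 0.0572 and 129 in bone marrow. Summed B cell markers reached 206 CPM in exudate, 151 in membrane, 256 in blood and 180 in bone marrow, and platelet markers 149 in exudate and 79.9 in blood. Erythroid markers reached 1285 CPM in bone marrow and at most 3.47 elsewhere. The part of these other cell types in the results was not tested. In bulk RNA, fewer cells of a type and less RNA per cell cannot be told apart. Several libraries stood apart from their group. Exudate library 5 was low for genes with opened starts, and blood libraries 1 and 2 were high. Values are given with and without these 3 libraries. They were picked from the very levels that are compared, so the values without them are a description and no test. The tissue columns also carry an unexplained tag, 100 or 300, with 3 and 2 libraries in blood, 2 and 3 in exudate, 3 and 0 in bone marrow and 0 and 2 in membrane, so tag and tissue cannot be told apart for membrane against bone marrow.

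Genes with a start opened between exudate and blood had more RNA in the pouch in most libraries. Of the 463 such genes (1 more had peaks in both directions) 334 passed the filter on low counts, and the values cover those only. Their mean level, as log2(CPM + 1), was 5.84, 5.57, 5.89, 5.83 and 2.39 in the 5 exudate libraries and 5.78 and 5.57 in membrane. It was 4.99, 5.42, 3.27, 2.91 and 2.57 in blood and 2.79, 2.80 and 2.69 in bone marrow. Exudate overlapped with blood and with bone marrow through library 5 alone, membrane lay above all blood and bone marrow libraries, and blood was split between libraries 1 and 2 and the rest. The exudate mean was 1.27 above blood with all libraries and 2.86 above without the 3 libraries. Within tag 100 it was 1.14 above without overlap, and within tag 300 it was 1.96 above with overlap. The 91 tested genes with closed starts had 3.19 in exudate and 3.91 in blood, a difference of -0.72 with overlap, and the 7542 with unlisted start peaks had 2.05 and 2.59.

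**Figure D3:**
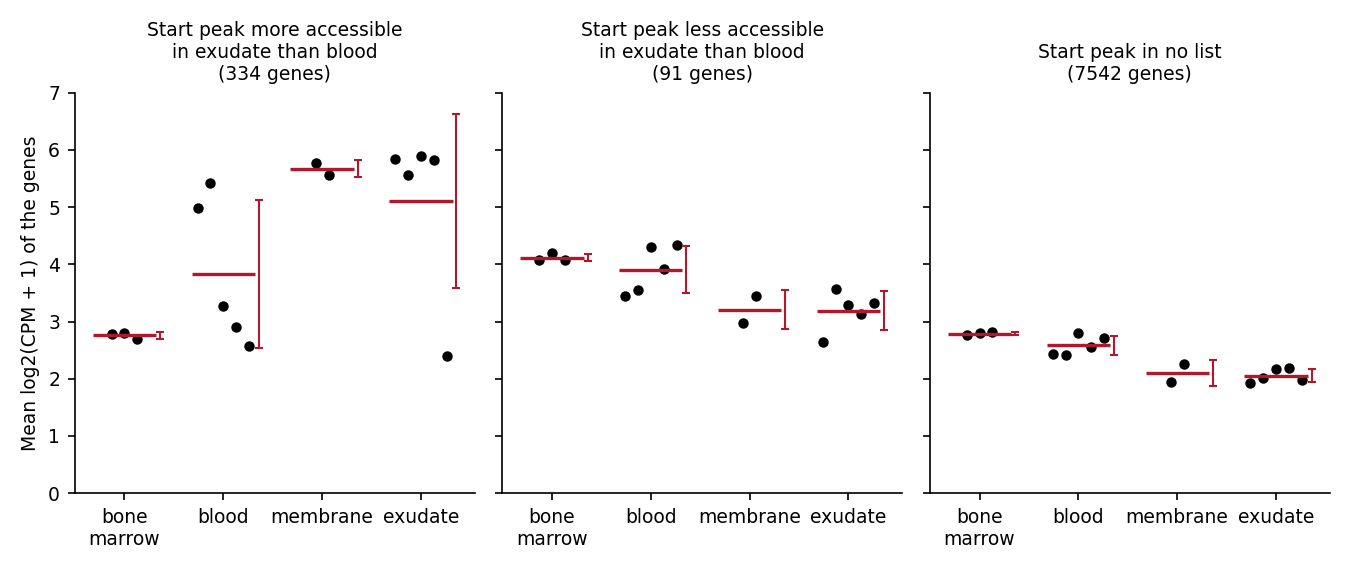
Mean log2(CPM + 1) of genes whose start peak was more accessible (left, 334 genes) or less accessible (middle, 91 genes) in exudate than in blood or was in no list (right, 7542 genes), 1 point per RNA library. Red lines are means and red bars are SD (n = 3, 5, 2 and 5 from left to right); in the left panel exudate library 5, at 2.39, lies below all other points and blood libraries 1 and 2 lie close to the pouch libraries.

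The spread between tissue libraries left few single genes past the test. By edgeR's quasi-likelihood test with Benjamini-Hochberg adjustment at 0.05, 0 of the 8566 tested genes with a start peak differed between exudate and blood (0% of all 12330 genes; 2349 had an unadjusted p under 0.05, and DESeq2 called 985 of those with a start peak, 92 higher and 893 lower). For membrane against blood the count was also 0 (0% of all; 963 unadjusted, and 1039 by DESeq2, 23 of them higher). Between exudate and bone marrow 21 did (0.178% of all), 8 higher and 13 lower (0.0649% and 0.114% of all). With RLE in place of TMM scaling the split was 5 and 16. The 5 called higher at an opened start were Irgm1, Mefv, Il1b, Clec4d and Il15ra, and 0 genes with closed starts were called. Irgm1 and Mefv were also the 2 genes called between membrane and bone marrow and the 2 called between blood and bone marrow (0.0162% of all in both). Without any 1 of the 3 bone marrow libraries all these calls were lost, and without exudate library 5 the count for exudate against bone marrow was 178. The members are therefore described by their medians. Median log2 changes of genes with opened starts were 1.5 for exudate against blood (-0.35 over all genes tested; 282 of 334, or 84.4%, above 0 against 44.2%), 3.44 for exudate against bone marrow (0.13 over all), 1.41 for membrane against blood (-1.74), 3.23 for membrane against bone marrow (-0.75) and 2.93 for blood against bone marrow (0.38). Genes with closed starts had 0.12, -1.43, -2.19, -3.00 and -0.73 in the same order. With genes at 0 in a group placed at their bound, the opened medians were 1.5, 3.37, 1.41, 3.13 and 2.91. RLE scaling moved the median of all genes by -0.27, -0.40, -0.26, -0.46 and -0.19, less than the gap between opened starts and all genes. Without the 3 libraries, the opened median for exudate against blood was 3.57 (-0.48 over all), and 293 of 324 opened genes (90.4%) were above 0, against 43.0% of all. These values describe libraries picked from the same levels and are no test.

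Single interferon genes followed that split of libraries. Irgm1 stood at 1887, 858, 417, 1079 and 0.229 CPM in the 5 exudate libraries, 1591 and 902 in membrane, 753, 885, 61.2, 53.9 and 62.3 in blood and 0 in all 3 bone marrow libraries. Bone marrow thus lay below every other library, and exudate 5 below all blood libraries. Against a floor of 3 counts over the bone marrow libraries (0.0575 CPM) the group means were at least 14760.2-fold higher in exudate, at least 21688-fold in membrane and at least 6319-fold in blood, bounds that cover counting error only. By edgeR's quasi-likelihood test the adjusted p was 0.0265, 0.0245 and 0.0491 for these comparisons with bone marrow. Gbp2 stood at 2960.4, 1579, 1371, 1777 and 0 CPM in exudate, 3288 and 1785 in membrane, 891, 2498, 30.6, 17.9 and 0 in blood and 0, 0.177 and 0.0572 in bone marrow. Its groups overlapped except for membrane against bone marrow, and no comparison passed the test (edgeR adjusted p = 0.0639 for exudate against bone marrow). Ifit1 had 11776, 3354, 4365, 4405 and 0.0765 CPM in exudate, 11646 and 4818 in membrane, 2085, 6512, 0, 13.4 and 0 in blood and 0.516, 29.5 and 0 in bone marrow. Over the 32 interferon genes with opened starts the mean log2(CPM + 1) was 8.58 to 9.21 in exudate libraries 1 to 4, 2.12 in exudate 5, 7.93 and 8.42 in blood 1 and 2, and 2.35 to 3.86 in blood 3 to 5. Bone marrow had 2.03 to 2.76 and membrane 8.72 and 9.41, so exudate 5 was within the range of bone marrow.

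Inhibitor, chemokine and cytokine genes with opened starts showed the same split of libraries, with exudate 5 low and blood 1 and 2 high. Nfkbia stood at 5363, 8096, 3878, 2677 and 268 CPM in exudate, 6289 and 4642 in membrane, 1273, 1465, 124, 52.7 and 372 in blood and 374, 191 and 177 in bone marrow. Membrane lay above blood and bone marrow, and exudate did so but for library 5 (log2 change against blood 2.63 ± 0.79 SE, edgeR adjusted p = 0.194). Ccl3 stood at 8133, 4651, 6746, 8849 and 0.0765 CPM in exudate, 2815 and 2488 in membrane, 1944, 3498, 29.2, 30.1 and 14.6 in blood and 0, 30.4 and 4.00 in bone marrow. Il1b, which encodes interleukin 1 beta, stood at 13643, 11470.4, 16605, 13679 and 1531 CPM in exudate, 9725 and 6053 in membrane, 4844, 8225, 890.2, 1457 and 119 in blood and 0.0430, 96.5 and 47.5 in bone marrow. Exudate and membrane were above all bone marrow libraries, and Il1b rose between bone marrow and exudate by edgeR (log2 change 7.89 ± 1.65 SE, adjusted p = 0.0493). F3 had RNA in 4 of 5 exudate libraries (484, 189, 87.9 and 66.6 CPM, with 0 in library 5), in membrane library 2 (14.8, with 0 in library 1) and in blood libraries 1 and 2 (20.3 and 152, with 0 in the other 3). Il23a, whose start had opened, was near 0 in the tissues: its only value above 1 CPM was 32.7 in exudate library 4.

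Of the genes with closed starts, Ngp had its highest RNA levels in bone marrow and Retnlg did not. Ngp stood at 52122, 63352 and 53823 CPM in bone marrow, 3406, 2578, 8104, 6192 and 44897 in blood, 1226 and 1137 in membrane and 309, 2560.4, 975, 1629 and 12212 in exudate. Bone marrow was above every other library, and the log2 change to exudate was -4.00 ± 0.87 SE (edgeR adjusted p = 0.0516). Without the 3 libraries, which were picked after the values were seen, the change was -5.30. Retnlg stood at 9459.6, 12529.7 and 11549 CPM in bone marrow, 19908, 11582, 18024, 22541 and 10095 in blood, 5933 and 9054 in membrane and 3960.5, 15821, 16037, 14002 and 33796 in exudate. Exudate, blood and bone marrow overlapped for Retnlg, although its start had closed with 3 peaks, and the change from blood to exudate was 0.03 ± 0.39 SE (edgeR adjusted p = 0.983). Mafk and Osm, whose closed peaks lay beside an unlisted start, stood at 80.7, 78.4, 161, 117 and 15.1 and at 639, 616, 815, 534 and 127 CPM in exudate. In blood they stood at 0.175, 19, 9.17, 13.5 and 12.2 and at 345, 359, 209, 331 and 469 CPM, so both had 4 exudate libraries above all blood libraries.

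**Figure D4:**
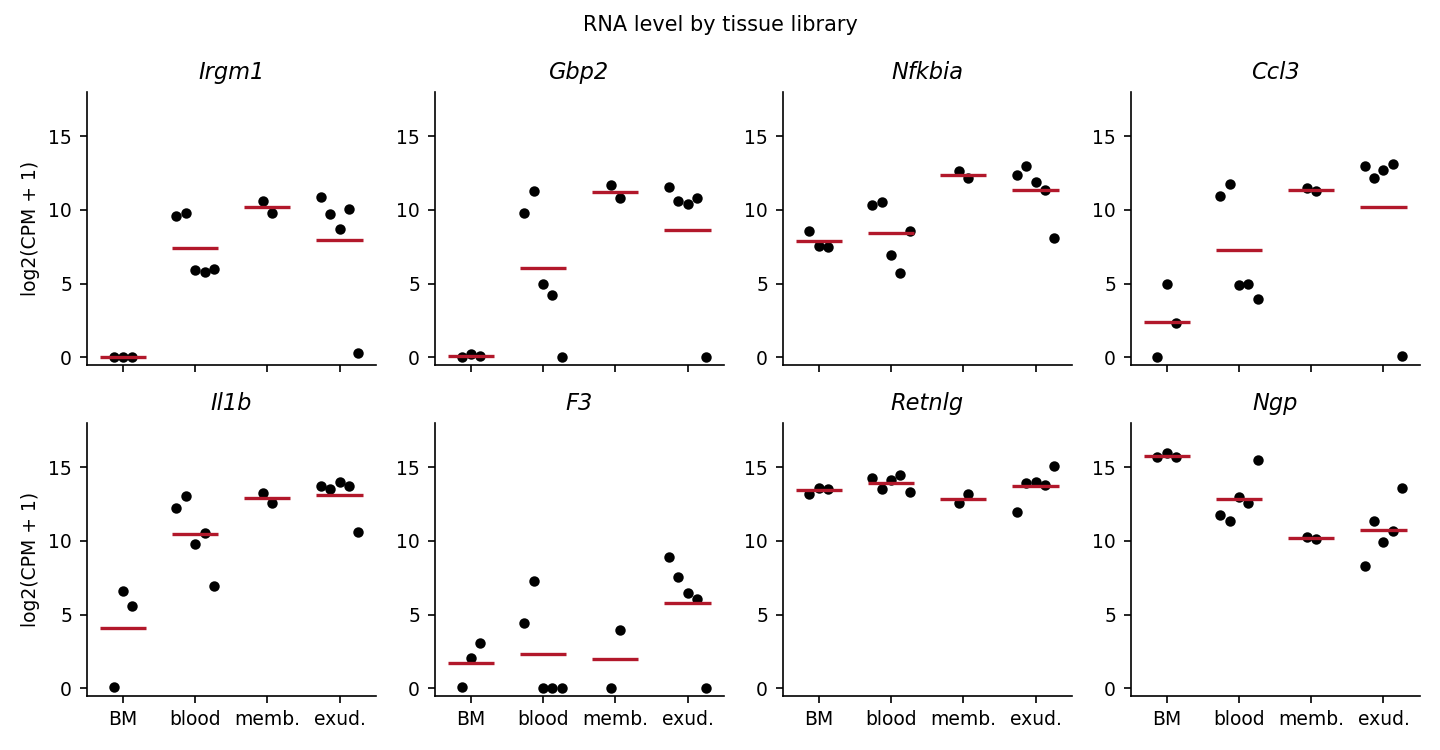
RNA level, as log2(CPM + 1), of 6 genes with opened starts (Irgm1, Gbp2, Nfkbia, Ccl3, Il1b and F3) and 2 with closed starts (Retnlg and Ngp) in bone marrow (BM), blood, membrane and exudate, 1 point per library with the mean as a red line. For the opened genes all exudate libraries but library 5 lie high, while Retnlg overlaps between exudate, blood and bone marrow and Ngp is highest in bone marrow.

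In ER-Hoxb8 cells the targeted genes did not check the labels, because the deleted part of each gene is not given in the sources used here. After zymosan Cebpb stood at 1071 and 938 CPM in wild-type cells and at 2880.1 and 2189.5 in the libraries labelled CEBPB knockout, a log2 change of 1.34 against the label. Junb stood at 2381 and 2229.6 CPM and at 2084 and 2158 in JUNB-/- cells, Irf5 at 136 and 137 and at 112 and 108 in IRF5-/- cells, and Relb at 469 and 447 and at 377 and 369 in RELB-/- cells. The log2 changes of these 3 were -0.12, -0.31 and -0.30, so RNA from each locus was still counted. The libraries held 19.4 to 32.4 M reads in set 1 and 24.0 to 34.3 in set 2, and the biological coefficients of variation were 0.0278 and 0.0190.

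Genes whose starts had opened in the pouch were induced by zymosan in the cultured cells more often than other genes. Of the 463 genes, 346 were tested in both sets, and 143 of these (41.3%) rose at least 2-fold in both wild types (edgeR quasi-likelihood test, Benjamini-Hochberg adjusted p under 0.05). Of all genes tested in both sets 12.7% did, and of those with an unlisted start peak 9.77%. Only 9 (2.60%) fell at least 2-fold in both, against 10.1% of all. By set, 170 of 359 (47.4%) rose 2-fold in set 1 and 169 of 355 (47.6%) in set 2, against 19.2% and 16% of all genes. The median log2 changes were 0.88 and 0.96, against -0.07 and 0.05 over all genes, and RLE scaling moved the latter by 0.13 and -0.03. Without a limit on the fold, 225 of the 359 rose and 98 fell in set 1, against 35.7% and 39.9% of all genes, and 247 of the 355 rose and 55 fell in set 2, against 36.3% and 32.1%. Among 87 genes with closed starts 16 (18.4%) rose and 12 (13.8%) fell in both sets. Whether the opened peak covered the start or lay beside it went with little difference here, since 85 of 206 (41.3%) and 58 of 140 (41.4%) rose in both.

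Cytokine and chemokine genes were among the opened genes with the largest inductions, beside H2-Eb1, an MHC class II gene, with log2 changes of 7.11 and 4.86. Il23a went from 1.11 and 1.31 CPM with DMSO to 482 ± 26.1 (SD, n = 2) with zymosan in set 1, and from 3.61 and 3.95 to 438 and 456 in set 2. Il1a went from 21.3 ± 0.454 (SD, n = 2) to 3484 and 3333 CPM in set 1 and from 20.6 and 20.6 to 3121 and 3158 in set 2. Ccl3 went from 202 and 198 to 7376 and 7218 CPM in set 1 and from 145 and 146 to 6485 and 6391 in set 2. None of these groups overlapped, and the log2 changes ranged from 5.19 ± 0.04 SE (Ccl3, set 1) to 8.64 ± 0.07 (Il23a, set 1), with edgeR adjusted p-values of 6.37e-68 and 1.57e-64. F3 rose by 5.14 and 5.13 and Nfkbia by 2.89 and 1.59 on the log2 scale. Genes with closed starts that fell at least 2-fold in both sets included Nlrp12, a negative regulator of inflammatory signalling, with log2 changes of -3.66 and -2.78, and Zfp36l2, an mRNA decay factor gene, with -2.90 and -3.43.

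Interferon genes with opened starts were induced in both sets about as often as all genes. Of the 32 tested in set 1, 4 (12.5%) rose at least 2-fold, against 19.2% of all genes, and of the 31 in set 2, 9 (29.0%) did, against 16% of all. Of 31 tested in both sets 4 (12.9%) rose at least 2-fold in both, a share like the 12.7% of all genes, against 18 of 21 (85.7%) genes of the NF-kB, cytokine and chemokine lists and 121 of 294 (41.2%) of the opened genes in neither. Their median log2 changes were -0.19 and 0.57, against 2.92 and 2.84 in the second group and 0.90 and 0.91 in the third. Irgm1 fell from 45.4 and 44.8 CPM to 24.2 and 23.8 in set 1, and stood at 14.6 and 15.8 CPM with DMSO and 16.3 and 16.6 with zymosan in set 2. The groups did not overlap in either set, but in set 2 the log2 change was 0.11 ± 0.09 SE (edgeR adjusted p = 0.24), and the difference between the sets was not tested.

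The knockout groups divided the same 2 kinds of gene. In JUNB-/- cells after zymosan 27 of the 32 opened interferon genes (84.4%) were at least 2-fold lower than in wild type, with a median log2 change of -2.80, against 23.1% of all genes. In RELB-/- cells 24 of 31 (77.4%) were, with a median of -2.04, against 12.8% of all. In the libraries labelled CEBPB knockout 11 of 32 were lower (34.4%; 18.3% of all), and in IRF5-/- cells 7 of 31 (22.6%; 14.7% of all). Of the 21 genes of the NF-kB, cytokine and chemokine lists 7 were lower in JUNB-/- cells (33.3%), 2 in RELB-/- (9.52%), 1 in IRF5-/- (4.76%) and 0 in the libraries labelled CEBPB knockout. Over all opened genes tested, 121 of 359 (33.7%) were lower in JUNB-/-, 65 of 355 (18.3%) in RELB-/-, 31 of 355 (8.73%) in IRF5-/- and 49 of 359 (13.6%) in the libraries labelled CEBPB knockout. Without a limit on the fold, 194 of the 359 were lower and 123 higher in JUNB-/- (37.4% and 39.1% of all genes), 185 of the 355 lower and 68 higher in RELB-/- (28.9% and 27.1%), 117 lower and 137 higher in IRF5-/- (30.8% and 29.6%), and 89 lower and 206 higher in the libraries labelled CEBPB knockout (32.9% and 35%; 67.9% of all genes were called in either direction there). In these last, 65 (18.1%) were at least 2-fold higher, against 9.38% of all. Without the interferon list the share lower in RELB-/- cells was 12.7%, which is that of all genes (12.8%), and in JUNB-/- cells 28.7%. The listed groups differ in level and number of genes, and the differences between them were not tested.

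The lower interferon genes were also low without zymosan. Over the 32 opened interferon genes the mean log2(CPM + 1) with DMSO was 5.01 and 5.03 in the wild type of set 1 and 2.63 and 2.66 in JUNB-/- cells. With zymosan it was 5.03 and 5.10 and 2.85 and 2.85. In set 2, with 31 genes, it was 3.38 and 3.41 in wild type and 2.21 and 2.19 in RELB-/- cells with DMSO, and 3.99 and 4.01 and 2.52 and 2.53 with zymosan. Both knockouts thus lay below their wild type in either treatment, and the set 1 wild type was above that of set 2. The libraries labelled CEBPB knockout, at 4.53 and 4.56 with DMSO and 4.69 and 4.65 with zymosan, were also below their wild type. So were IRF5-/- cells, at 2.95 and 2.99 with DMSO and 3.54 and 3.56 with zymosan. Ifit1 stood at 73.6 and 76.3 CPM in set 1 wild type with DMSO and 0.940 and 0.927 in JUNB-/- cells. After zymosan it was 35.4 and 42.4 against 5.87 and 6.35 (log2 change -2.67 ± 0.09 SE, edgeR adjusted p = 7.85e-33), and in set 2 10.1 and 9.39 against 0.739 and 1.10 in RELB-/- cells (-3.42 ± 0.20 SE, adjusted p = 8.63e-26). Gbp2, with an AP-1 and an IRF match before its start, was 17.7 and 17.2 CPM in JUNB-/- against 64.5 and 68.7 in wild type with DMSO, but 134 and 129 against 151 and 150 after zymosan. For the NF-kB, cytokine and chemokine genes the mean in JUNB-/- cells was 4.65 and 4.62 with DMSO and 9.67 and 9.69 with zymosan. In the wild type of set 1 it was 6.49 and 6.52 and 10.06 and 10.03. JUNB-/- cells thus began lower and came close to wild type, and the other knockout groups also began lower and came near or above it. With DMSO the libraries labelled CEBPB knockout had 5.52 and 5.53. In set 2 IRF5-/- cells had 5.52 and 5.51, RELB-/- cells 5.58 and 5.56 and wild type 7.05 and 7.07. With zymosan these 4 groups had 10.62 and 10.62, 10.36 and 10.37, 9.96 and 9.94, and 10.36 and 10.36. Among these genes Ccl4 was far lower after zymosan in JUNB-/- cells (-3.29 ± 0.04 SE) and Cxcl3 was lower in JUNB-/- (-2.60 ± 0.05), RELB-/- (-2.15 ± 0.03) and IRF5-/- cells (-1.24 ± 0.03), all with edgeR adjusted p-values of 2.10e-47 or less.

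**Figure D5:**
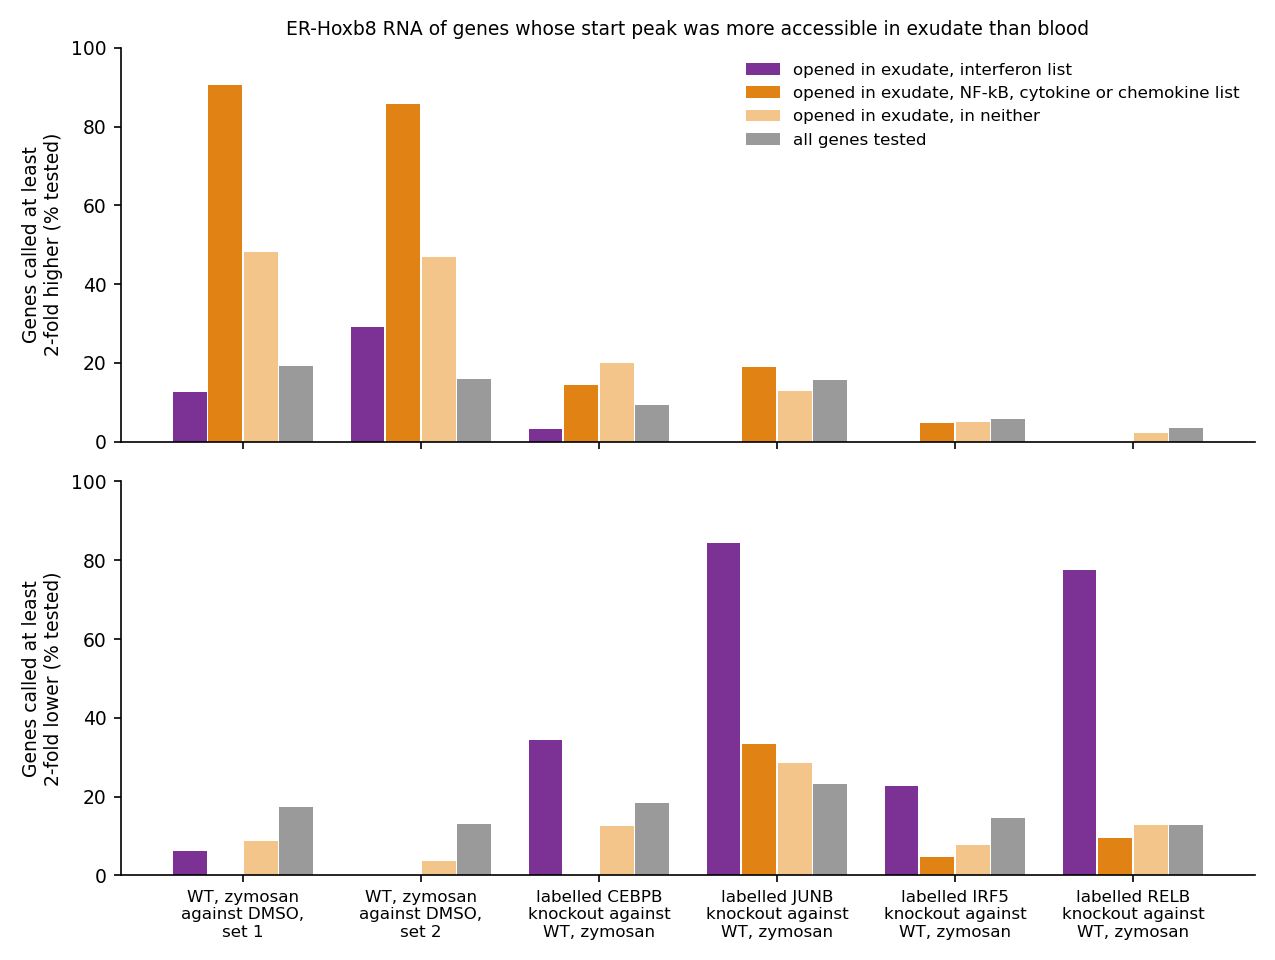
Share of genes called at least 2-fold higher (top) or lower (bottom) in 6 comparisons of ER-Hoxb8 RNA, among genes with starts opened between exudate and blood that are in the interferon list (purple), in the NF-kB, cytokine or chemokine lists (dark orange) or in neither (light orange), and among all genes tested (grey). The dark orange bars lead after zymosan in both wild types, with 90.5% and 85.7%, and the purple bars lead among genes lower in JUNB and RELB knockout cells, with 84.4% and 77.4%.

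In each of the 4 knockout groups after zymosan, genes whose starts had closed between exudate and blood were mostly higher. Those with starts closed relative to bone marrow were not. In JUNB-/- cells 47 of 89 tested genes (52.8%) with starts closed between exudate and blood were at least 2-fold higher than in wild type. Of all genes 15.8% were, and the median log2 change of the 89 was 1.05. Without a limit on the fold, 71.9% were higher in JUNB-/-, 60.6% in RELB-/-, 62.8% in IRF5-/- and 55.1% in the libraries labelled CEBPB knockout. Of all genes 39.1%, 27.1%, 29.6% and 35% were, in that order. At least 2-fold higher were 12 of 94 in RELB-/-, 12 of 94 in IRF5-/- and 16 of 89 in the libraries labelled CEBPB knockout. Those shares of all genes were 3.43%, 5.82% and 9.38%. Of genes with starts opened between exudate and blood, 34.3% were higher in JUNB-/-, 19.2% in RELB-/- and 38.6% in IRF5-/- cells, without a limit on the fold. In the libraries labelled CEBPB knockout 57.4% were, so there the closed starts did not stand out from the opened ones. For starts closed between membrane and blood the share at least 2-fold higher in JUNB-/- cells was 36.2%. For starts closed from bone marrow it was 28.8% in exudate (27.1% at least 2-fold lower), 19.8% in membrane (36.5% lower) and 15 of 94 genes in blood (34.0% lower), with median log2 changes of 0.15, -0.45 and -0.25. Retnlg stood at 455 and 461 CPM in wild type and at 5533 and 5879 in JUNB-/- cells (log2 change 3.64 ± 0.05 SE, edgeR adjusted p = 1.16e-54). With DMSO it was 557 and 486 against 5164 and 4525 CPM. Of the 15 tested specific granule genes 10 were at least 2-fold higher in JUNB-/- and 10 of 14 in RELB-/- cells, as were 6 of 14 in IRF5-/- cells and 6 of 15 in the libraries labelled CEBPB knockout. Among all genes the shares were 15.8%, 3.43%, 5.82% and 9.38% in that order. In JUNB-/- and RELB-/- cells Ltf was higher by log2 changes of 3.19 ± 0.03 and 2.14 ± 0.02 SE. In all 4 knockout groups cell cycle genes were lower in RNA, at least 2-fold for 22, 19, 20 and 17 of 26 in CEBPB, JUNB, IRF5 and RELB order. Among all genes the shares were 18.3%, 23.1%, 14.7% and 12.8% in that order. The part of the cell cycle difference in the values above was not tested.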

How the data were processed

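The authors deposited 1 table of merged ATAC peaks, 10 lists of differentially accessible peaks and 3 featureCounts tables used here; a further set with RUNX1 and KLF6 knockouts was not used here. Bowtie2, MACS2, STAR, cutadapt, deepTools, DESeq2 and featureCounts are named in the submitters' processing notes, without a role for each. The deposited read counts per gene are raw, made with featureCounts 1.5.0-p2 or 1.6.3, without strand for the tissues and reverse-stranded for ER-Hoxb8 cells, per the file headers. The deposited lists give a -log10 adjusted p per peak, with a threshold of 0.05, and the merged table gives a deposited score of unstated scale, a number of merged peaks and the peak width; the aligner's and caller's settings are not given in the sources used here. The authors' table holds no ATAC value per library. Of set 1, 18 columns that matched no label were left out.

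Gene starts were the first exon ends by strand in the tissue table's gene models. Of 50600 gene identifiers 50376 (99.6%) matched a symbol in the gene name table. Counts were fitted per table, with all groups, by edgeR 4.0.16 (quasi-likelihood test, TMM scaling, genes kept at a minimum of 10 counts by filterByExpr) in R 4.3.3 and adjusted by the Benjamini-Hochberg method over all genes tested; a call is an adjusted p under 0.05, and 2-fold calls also need a log2 change of 1 or more in size. CPM are counts scaled to the TMM-adjusted library size. DESeq2 1.42.0, RLE scaling, no filter, only the groups compared, a replicate block, each library left out, other distances and a stricter list threshold were alternatives. On simulated data with 100 changed genes per fold size the tissue fit for exudate against blood found 0% of 4-fold and 1% of 16-fold changes among 12330 genes, and the wild-type fit found 90% and 99% in set 1 and 96% and 97% in set 2. Deviations of same-numbered libraries correlated at no more than 0.03 in the ER-Hoxb8 tables and 0.07 in the tissue table, so numbers were not treated as pairs. No 2 libraries agreed within sampling noise (chi-square per degree of freedom 1.65 or more).

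Reads carry no molecular identifiers here, so floors cover counting error only. Promoter windows were assigned to a peak that held at least 150 of their bases. Genes named are the 5 highest -log10 adjusted p of each list among genes that pass the count filter, up to 6 members per gene list opened or closed both against blood in exudate and against bone marrow in membrane, the factors that were knocked out in the study, the 12 opened genes with the largest and the 6 closed genes with the lowest zymosan response in both wild types, 4 shared peaks, peaks in opposite lists and the 3 widest. Other members, such as Clec4d and Il15ra, were named after their values were seen. The regions and gene lists were chosen with earlier results of these data known.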

Additional observations from a re-analysis of the deposited data

Results flagged for a closer look

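Of 78 groups of 5 tissue libraries examined for genes and gene classes named here, 21 held a library whose gap to its nearest neighbour was over 0.71 of the range of its group. Chance gives such a gap in about 1 in 20 groups. In 15 of the 21 the library was exudate 5, as the lowest. It had a mean log2(CPM + 1) of 2.39 for genes with starts opened between exudate and blood, 2.76 for those opened between membrane and bone marrow and 4.31 for those opened between blood and bone marrow. Among interferon genes it had 0 CPM of Gbp2, 0.0765 of Ifit1, 0.229 of Irgm1 and 0.459 of Slfn5. Among chemokine and cytokine genes it had 0 CPM of Cxcl3 and Tnf, 0.0765 of Ccl3, 0.153 of Ccl4, 1531 of Il1b and 127 of Osm. Of the survival genes it had 0 CPM of Bcl2a1d and 64.9 of Birc3.

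The other 6 were spread over libraries. Il23a was highest in exudate 4, at 32.7 CPM, and in blood 1, at 0.964. Mafk was lowest in blood 1, at 0.175 CPM. Syne1 was highest in blood 5, at 539.7 CPM, Anxa5 was highest in exudate 2, at 182, and Lcn2 was lowest in exudate 1, at 1035.

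Of 32 genes examined in the wild-type ER-Hoxb8 cells, 4 had zymosan changes of opposite sign in the 2 sets without overlap of libraries. How many of all genes had such opposite changes without overlap was not counted, so the 4 of 32 have no base here. By edgeR calls, which are another measure, 522 of all 12395 genes tested in both sets went in opposite directions. Of the 346 tested genes with starts opened between exudate and blood 23 did. For the 4 genes the log2 changes in set 1 and set 2 were -0.44 and 0.85 for Slfn5, -0.91 and 0.11 for Irgm1, -0.94 and 0.28 for Ifit1, and -0.19 and 0.30 for Retnlg. The change of Irgm1 in set 2 was not called. The difference between the sets was not tested.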

How the results depend on the processing

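Of 178 values under alternative settings, over 23 results, 129 stayed within 1.5 times the reported count. Counts of gene-start peaks moved beyond that for 76 closed between exudate and blood with starts within 500 bp, for 146 closed between membrane and blood and 85 opened between blood and bone marrow with 2000 bp, and, with only genes that pass the count filter, for 330 closed between exudate and bone marrow, 292 closed between membrane and bone marrow, and 34 opened and 65 closed between blood and bone marrow. Stricter thresholds and peak centres moved none of the 10 list counts that far.

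Tissue RNA calls among genes with a start peak depended on most settings. For exudate against blood, exudate against bone marrow, membrane against blood, membrane against bone marrow and blood against bone marrow in turn, there were 68, 235, 12, 122 and 53 without the filter on low counts, 985, 1387, 1039, 1416 and 216 by DESeq2, and 67, 269, 82, 246 and 76 with a replicate block by column tag and number, which is no known pairing. With only the groups compared there were 0 for exudate and 116 for membrane against bone marrow and 0 for blood against bone marrow, which had 1 with RLE scaling. Without exudate 5, blood 1 and blood 2 together, a choice made after seeing the data, there were 241, 355, 113 and 190 for the first 4. Leaving out 1 library at a time gave 0 to 14 (14 without exudate 5), 0 to 178, 0 to 0, 0 to 10 (10 without membrane 2) and 0 to 2 calls. The cause of these shifts was not tested.

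ER-Hoxb8 calls among opened genes stayed within 1.5 times under all alternatives run. With the replicate block they numbered 323 and 300 in the wild types of set 1 and set 2, 295 in the libraries labelled CEBPB knockout, 316 in JUNB-/-, 253 in IRF5-/- and 253 in RELB-/- cells.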

Other observations

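Of all gene-start peaks 3.36% had opened between exudate and blood, and the small counts in the groups that follow are read against that share. Of 26 proteasome genes Psmb8 and Psme2, of the immunoproteasome and its activator, had opened between exudate and blood. Psmb10 had opened in exudate and membrane against bone marrow, where 4.60% and 3.95% of all gene-start peaks had. B2m, the light chain gene of MHC class I, was the one of 22 general transcription and housekeeping genes to open, and Ywhaz had closed. Of 5 dendritic cell and MHC class II markers with a start peak, the MHC class II pathway genes Cd74 and H2-Eb1 had opened in exudate, at 1.39 and 6.37 against blood in the authors' deposited table. Flt3, of the same markers, had closed in exudate and membrane against bone marrow. Of 4 monocyte and macrophage markers with a start peak only Adgre1, which encodes F4/80, was in a list. Adgre1 had opened in all 4 pouch comparisons at 3.72 to 4.28 in the authors' deposited table, while its RNA was at most 6.07 CPM in any tissue library, in blood, and at most 0.356 in exudate.

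Of 23 genes of the hypoxia response and glycolysis, 1 had opened between exudate and blood, near the 3.36% of all gene-start peaks. It was Hif1a, the gene of the oxygen-regulated factor subunit. Ldha and Gpi1, which encode glycolytic enzymes, had closed, as had 0.918% of all gene-start peaks. Ldha closed in all 4 pouch comparisons, with 9.79 against blood for exudate in the authors' deposited table, at a peak 226 bp downstream of its start. Bcl2, an anti-apoptotic gene, had closed in exudate and membrane against bone marrow, while the related genes Bcl2a1a, Bcl2a1b and Bcl2a1d had opened there.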
